A study of Homo sapiens with 23 samples.

Results

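The genes described here build and run the primary cilium, the single antenna of microtubules that most progenitor cells and many neurons carry. They were chosen by gene symbol, as the subunits and partners of intraflagellar transport, the BBSome, the transition zone and the basal body, and 58 of the 9497 genes in the RNA-seq tables were members. No measured value entered the choice. By textbook role the members comprised 10 subunits of the IFT-B complex and 8 of IFT-A and its adaptor. A kinesin group of 5 held the outward motor, its accessory subunit KIFAP3 and KIF7. There were 4 subunits of the dynein-2 return motor, 8 of the BBSome and its partners and 17 of the transition zone. The basal body had 2, and 3 were ciliary GTPases or phosphoinositide enzymes. IFTAP, a small protein that associates with the transport trains, was given no role group.

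Thalamus organoids (ThOs) are cultures of human pluripotent cells patterned towards thalamic tissue, grown here from the H1 embryonic stem cell line. WT libraries were made from ThOs of the unedited line, those labelled KO from H1 cells cut by CRISPR/Cas9 at c-JUN (symbol JUN), a partner in the DNA-binding dimer AP-1, and those called OE from KO cells carrying a doxycycline-inducible c-JUN transgene. RNA was taken at day 25 and day 30 from 3 pooled ThOs per library, with 2 libraries per genotype and day, 12 in all. KO and OE share the edited background, 2 KO lines are named for the series, and the sources used here do not say which line a library came from.

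A cilium has no ribosomes, so every protein in it is carried in. Kinesin-2 pulls trains of IFT-B and IFT-A towards the tip, dynein-2 returns them, and the BBSome loads membrane receptors for exit. The transition zone, a ring of tectonic, MKS and other proteins above the basal body, acts as the gate. In neural progenitors the cilium is best known as the place where Hedgehog signals are received, and RFX transcription factors switch on many of its genes.

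Promoters are shown first because the manipulated factor, c-JUN, binds DNA as AP-1 and because RFX factors bind a recurring element, the X-box. RefSeq gave a GRCh38.p14 promoter, 250 bases before to 50 bases after the gene start, for 50 of the 58 genes. The start used there can lie inside the deposited gene span, as for IFT122 (129429607 to 129520510) and CC2D2A (15469865 to 15601552). Letters were searched on both strands for 13 patterns. The X-box core GTTGCC was in 21 of the 50 (42%), beside 17.4% of the genes in the RNA-seq tables that have a promoter and 14.6% of all genes with one. A 14-letter pattern with both arms of the X-box, GTTNCC and 2 letters later GNNAAC, was in MKS1, TMEM107 and IFT172, or 6% beside 0.879% of all genes and 1.19% of the genes in the tables. The stretches that hold it before the start in MKS1 (chr17:58219261-58219304) and TMEM107 (chr17:8176397-8176440), both on the minus strand, are given with the pattern in capitals.
MKS1: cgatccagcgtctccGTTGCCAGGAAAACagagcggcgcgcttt
TMEM107: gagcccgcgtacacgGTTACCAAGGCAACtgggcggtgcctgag
The core alone stood close before the start in IFT122 (chr3:129440197-129440223, plus strand) and farther upstream in IFTAP (chr11:36594659-36594694, plus strand).
IFT122: ttaccgcgcatgtacGTTGCCaggggt
IFTAP: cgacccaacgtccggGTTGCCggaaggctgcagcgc
In DYNC2H1 (chr11:103109360-103109395, plus strand) the capitals mark the same core on the opposite strand.
DYNC2H1: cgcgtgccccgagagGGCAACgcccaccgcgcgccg

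The AP-1 letters TGANTCA were in the promoter of 1 of the 50 genes, CC2D2A, or 2% beside 9.37% of all genes and 6.60% of the genes in the tables, at 229 bases before the start (chr4:15478968-15479004, plus strand). The related letters TGACGTCA form the CRE, an element to which ATF and CREB proteins bind. The study names the ATF family, beside JUN and Fos, as forming the AP-1 dimers. The CRE was in IFT57, BBS7, IFT20, IFT27 and IFT43, or 10% beside 2.25% of all genes and 4.22% of the genes in the tables. That of IFT57 lies 81 bases before the start (chr3:108222483-108222520, minus strand). The capitals mark these letters.
CC2D2A: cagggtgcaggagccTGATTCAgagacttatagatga
IFT57: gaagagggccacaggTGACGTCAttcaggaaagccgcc
The other patterns searched were TGACTCA, in none of the 50; CACGTG, in 2; CCGGAAG, in 10; GTTNCCA, in 21; GTTGCCAT, in 2; GTTNCCATG and GTTGCCATG, in 1 each; and the same arms as above with GGNAAC as the second arm, in 1, or with AT between GTTNCC and GGNAAC, in 0. The patterns singled out were chosen after these counts were seen. In MKS1 the core is the first arm of the longer pattern, and in IFTAP its last 2 letters also begin CCGGAAG. A match describes letters in a window and was not tested as a binding site.

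The values are the authors' normalized expression scores, and all 12 libraries had the same lowest, median and highest value (11, 106 and 9910). Read depth is unknown, and values of different genes are not compared as abundances, because it is not known whether they are per length. JUN itself was at 353 and 196 in the day 25 libraries labelled KO and 222 and 248 at day 30, against 128 to 162 in the 4 WT libraries. It was thus higher, not lower, in every library labelled KO. An exact two-sided permutation test, with labels exchanged freely across the days, gave p = 0.0286 (n = 4 per group), the smallest p it can give. The limma adjusted p was 0.197. The OE libraries were at 224 and 212 at day 25 and at 362 and 202 at day 30, also above every WT value. OE and KO values overlapped, and over both days OE against KO did not pass the test (log2 fold change -0.03, SE 0.23, limma adjusted p = 0.949). The study tested its KO lines for c-JUN by western blot, and by RT-qPCR in neural progenitors and cerebral organoids, not ThOs. Those measurements were not analysed here. The JUN values here do not match the absence of c-JUN RNA that the study reports from RT-qPCR. Why they differ was not tested. These values alone do not settle the label, and the words KO and OE below name the labels only. Of 15 thalamus markers 6 were in the tables, TCF7L2, LHX9, PROX1, NTNG1, SLC17A6 and NEUROG1, and their summed value ran from 464 to 1219 per library. The 2 KO libraries of a day resembled each other less (Spearman 0.821 at day 25 and 0.769 at day 30, across genes) than those of any other group (0.936 to 0.959).

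**Figure D1:**
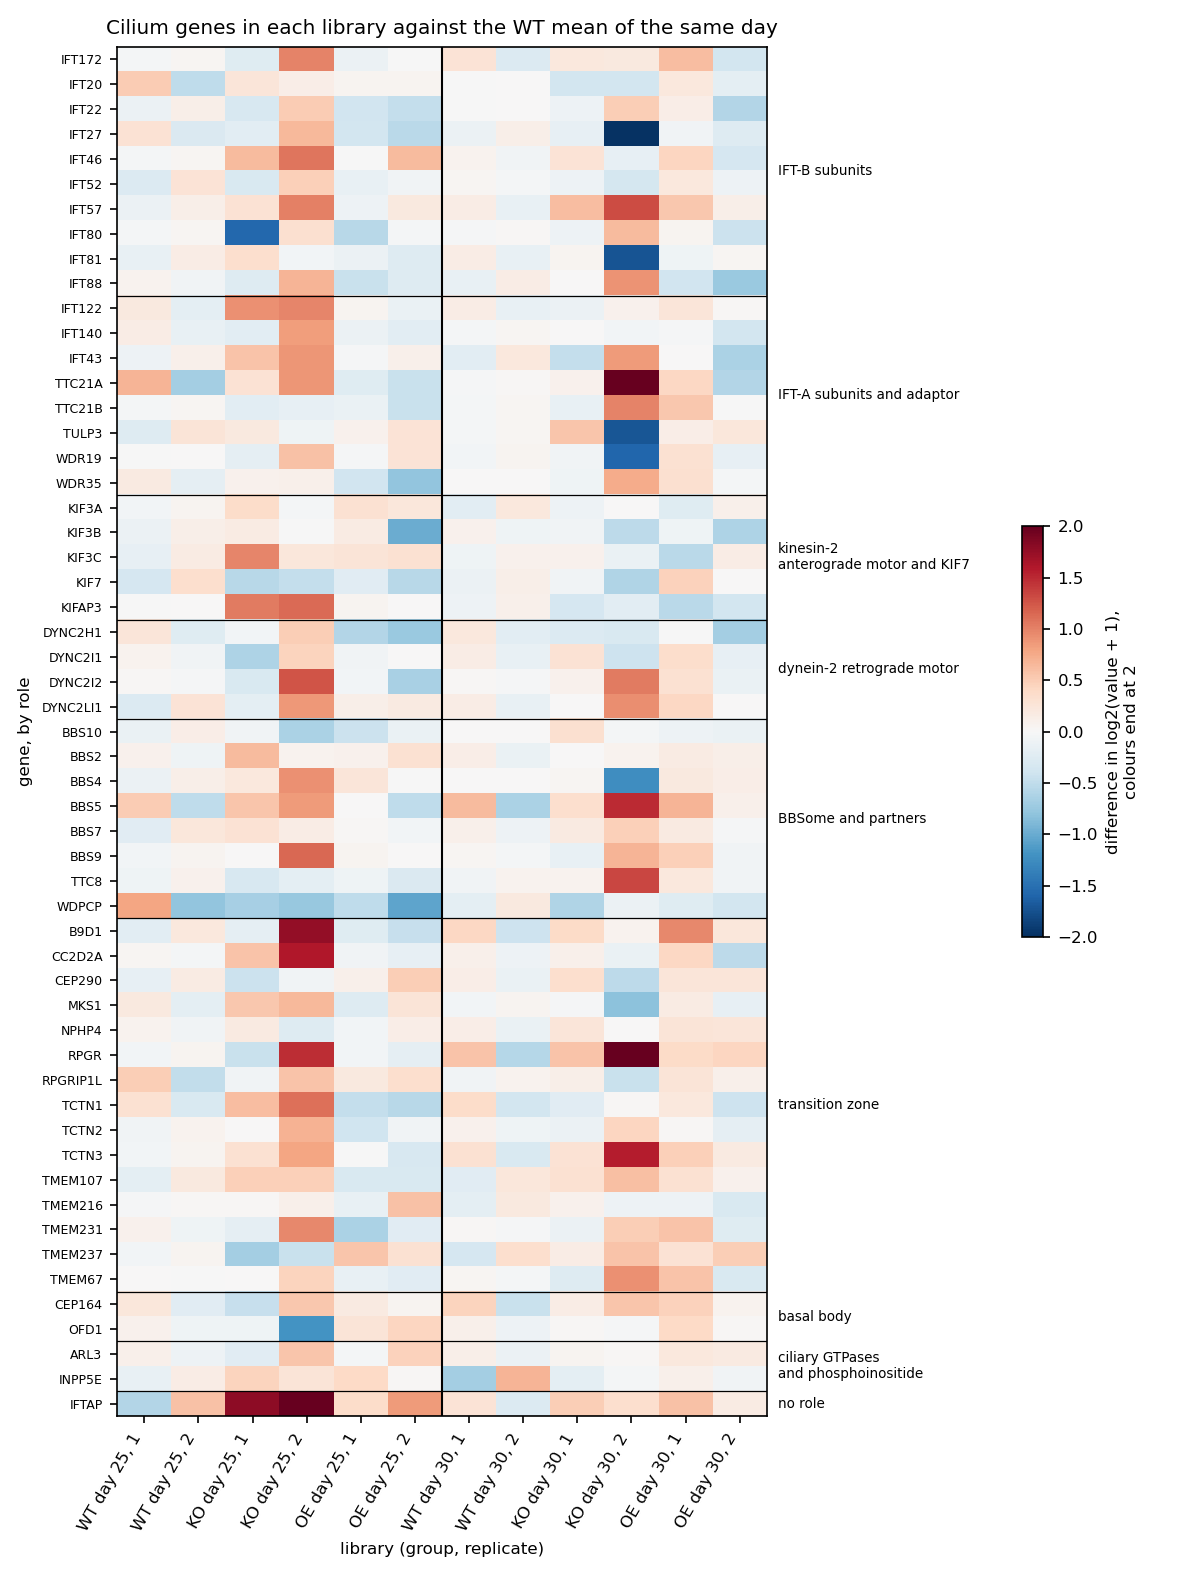
Each row is 1 of 55 of the 58 cilium genes, grouped by role, and each column 1 of the 12 libraries. Colour gives the difference in log2(value + 1) from the mean of the 2 WT libraries of the same day, red for higher and blue for lower, with colours ending at 2. The columns KO day 25 replicate 2 and KO day 30 replicate 2 hold the strongest colours, the first mostly red (45 of all 58 genes above the WT mean, the 3 not drawn included) and the second red and blue.

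The first question was whether these genes differed between the libraries labelled KO and WT. For KO against WT, no cilium gene was called, that is, none passed both an adjusted p of 0.05 and a 2-fold change at either day or over both (limma, Benjamini-Hochberg over all 9497 genes). Calls were rare among all genes too, at 0.0105%, 0% and 0.0211% of genes in the same comparisons. At an unadjusted p under 0.05, 7 members were higher and 0 lower at day 25, or 12.1% beside 6.03% of all genes higher and 7.39% lower. Over both days 8 were higher and 0 lower, beside 7.01% and 8.16% of all genes. With the 2-fold threshold kept and p left unadjusted, 4 members passed at day 25 (6.90% beside 5.31% of all genes), 1 at day 30 (1.72% beside 2.94%) and 2 over both days (3.45% beside 2.08%). The KO effect differed between the days for 0 members (0% of all genes) after adjustment, and for KIFAP3 and IFTAP at an unadjusted p with 2-fold (3.45% beside 3.99%). The median log2 fold change of the members was 0.23 for day 25, 0.13 for day 30 and 0.20 for the days together, against medians of all genes between -0.02 and 0.00. At day 25, 46 of 58 members had a fold change above 0, or 79.3% beside 48.4% of all genes.

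This tilt at day 25 lay in 1 library. The median member was 0.52 above the day 25 WT mean on the log2 scale in KO replicate 2 and 0.01 above it in KO replicate 1. Without replicate 2 the day 25 median fold change of the members was 0.012, and without replicate 1 it was 0.52. Of the 58 members 23 had their highest value of all 12 libraries in that replicate, or 39.7% beside 14.3% of all genes. KO day 30 replicate 2 held the highest value of another 18, or 31.0% beside 23.3% of all genes.

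The same library stood apart in other gene lists. Of 63 motile axoneme genes, which drive beating cilia, 34 were in the tables, and of 10 multiciliated cell markers 5 (FOXJ1, PIFO, TPPP3, CAPS and RSPH1). PIFO and RSPH1 are also in the axoneme list. In KO day 25 replicate 2 the median of the axoneme genes was 1.43 above WT, and that of the multiciliated markers was 2.17 above. FOXJ1, the master regulator of motile cilia, was at 1159 there against 270 and 330 in WT and 388 in KO replicate 1. The summed value of the 5 multiciliated markers was 3258 in this library and 482 to 1481 in the other 11. The sum of 11 choroid plexus markers was 7546 there and 2387 to 6220 elsewhere, and the sum of 8 radial glia markers was 3984 there, the lowest, and 5717 to 13855 elsewhere. None of these listed markers was at 0 in any library, since every gene in the tables exceeded 10. OE day 30 replicate 1 tilted the same way by less, with 45 of 58 cilium genes above the WT mean of that day. Its medians were 0.24 for the cilium genes, 0.60 for the axoneme genes, 0.62 for the multiciliated markers and 0.54 for the choroid plexus markers. Radial glia markers were not lowered there, with a median of 0.07. In WT day 30 replicate 1 the axoneme, multiciliated and choroid plexus medians were 0.37, 0.44 and 0.40, beside 0.03 for the cilium genes. In KO day 30 replicate 2 they were 0.40, 0.39 and -0.17, beside 0.07. The part of these lists in the tilt of the cilium genes was not tested. In bulk RNA from pooled ThOs, more cells of a kind and more RNA per cell cannot be told apart.

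**Figure D2:**
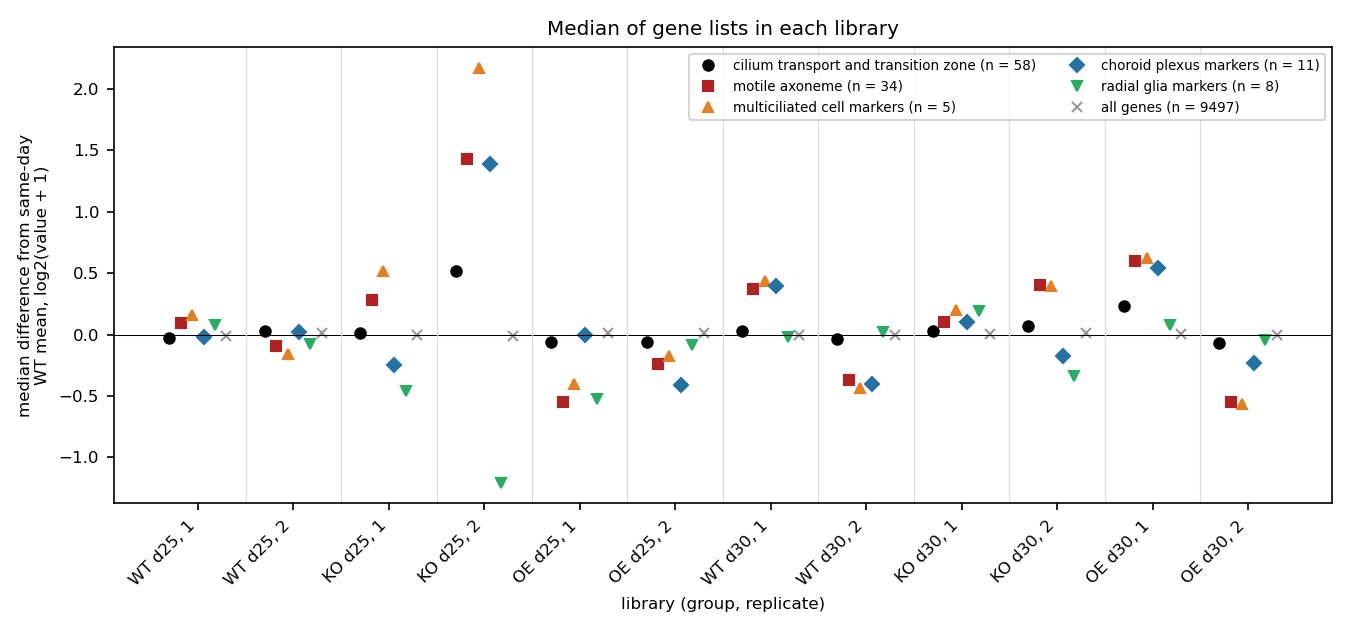
For each of the 12 libraries on the x axis, symbols give the median difference of a gene list from the same-day WT mean in log2(value + 1). In KO day 25 replicate 2 the cilium genes (0.52), motile axoneme genes (1.43), multiciliated markers (2.17) and choroid plexus markers (1.39) lie above 0 and radial glia markers (-1.21) below, while the cilium median is between -0.07 and 0.24 in every other library.

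Among the motors, KIFAP3 had the clearest values. KIFAP3 (chromosome 1, 169921326 to 170085208, GRCh38, minus strand) is the accessory subunit that joins the kinesin-2 motor pair KIF3A and KIF3B to cargo. It was at 242 and 243 in day 25 WT, 500 and 532 in day 25 KO, and 252 and 243 in day 25 OE. At day 30 it was at 432 and 496 in WT, 365 and 401 in KO, and 318 and 357 in OE. The day 25 KO libraries thus stood far above the other day 25 libraries, whereas at day 30 KO lay below WT, with no overlap in either case. KO against WT at day 25 had a log2 fold change of 1.09 (SE 0.18, unadjusted p = 6.2e-05), which did not pass after adjustment (limma adjusted p = 0.147). Its 2 KO replicates at day 25 were 1.04 and 1.13 above the WT mean on the log2 scale. With replicate 1 as the only KO library of each day, a setting chosen after the data were seen, the day 25 adjusted p was 0.0190, and over 23 alternatives it ran from 0.0190 to 0.639. The summed value of 10 dividing-cell markers was low in both of these libraries, at 2165 and 1827 in day 25 KO, 3150 and 3410 in WT and 3611 and 3831 in OE. That of 12 neuron markers was high in KO replicate 1 alone, at 11792 and 9014 in KO, 7463 and 8759 in WT, and 9665 and 9531 in OE. Their part in the KIFAP3 values was not tested.

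The kinesins of this group showed little of this. KIF3A, a motor subunit, was among the 3 members with the smallest spread over the 12 libraries and ran from 140 to 224. KIF3B, its partner, ran from 302 to 368 in day 25 WT and KO but was at 366 and 164 in the day 25 OE pair. KIF3C, a kinesin-2 subunit best known from neurons, was at 438 in KO day 25 replicate 1, and at 198 to 320 in the other 11 libraries. KIF7, which organizes the cilium tip for Hedgehog signalling, was at 40 and 64 in day 25 WT and at 34 and 36 in day 25 KO, a log2 fold change over both days of -0.43 (SE 0.26, limma adjusted p = 0.437).

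For the return motor, DYNC2H1, the heavy chain of dynein-2, had the highest mean of all members on the deposited scale. It was at 548 and 392 in day 25 WT, 444 and 651 in KO and 308 and 278 in OE, and at 401 and 297, 285 and 280, and 344 and 214 at day 30. The OE values were low at day 25, below all 4 other values of that day. OE against WT over both days gave a log2 fold change of -0.50 (SE 0.20, limma adjusted p = 0.522). DYNC2I2, an intermediate chain, was at 334 in KO day 25 replicate 2 and 312 in KO day 30 replicate 2, and at 88 to 187 in the other 10 libraries.

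In the IFT-B complex 1 of 10 genes, IFT46, was higher in KO at day 25 at an unadjusted p under 0.05, beside 6.03% of all genes. It was at 87 and 92 in the WT pair, then 140 and 188 in KO (log2 fold change 0.85, SE 0.33, limma adjusted p = 0.294). IFT57 was the single member of all 58 whose 4 KO libraries lay above the 4 WT libraries, 1.72% of members beside 2.74% of all genes. Its values were 99 and 117 in day 25 WT, 132 and 218 in KO, and 100 and 124 in OE, then 130 and 105, 180 and 291, and 170 and 127 at day 30. Over both days KO exceeded WT by 0.81 on the log2 scale (SE 0.23, limma adjusted p = 0.193). In both days replicate 2 of KO was the higher.

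IFT88 and IFT172, core subunits whose loss stops cilium formation, ran from 34 to 109 and from 90 to 214. IFT88 was highest in KO day 30 replicate 2, and IFT172 in KO day 25 replicate 2. IFT88 was also the single member for which the 4 OE libraries (34 to 46) lay below the 4 WT libraries (52 to 64), beside 4.34% of all genes (log2 fold change -0.46, SE 0.28, limma adjusted p = 0.768). IFT27, a small GTPase of the complex, had a log2 fold change of -0.43 over both days (SE 0.35, limma adjusted p = 0.562) that came from 1 value, 32 in KO day 30 replicate 2 against 107 to 268 elsewhere. Without that library the value was 0.027.

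In IFT-A, IFT122, a core subunit, was at 199 and 152 in day 25 WT, 328 and 342 in KO and 181 and 158 in OE. At day 30 it was at 228 and 185, 190 and 217, and 242 and 208. As for KIFAP3, both day 25 KO libraries were above all others of the 12, and at day 30 the 3 genotypes overlapped. The day 25 difference of 0.94 on the log2 scale (SE 0.22) had a limma adjusted p of 0.173. TTC21A, an IFT-A subunit with one of the 3 largest spreads among the members, was at 120 in KO day 30 replicate 2 and at 16 to 67 elsewhere. TULP3, the adaptor that brings receptors to IFT-A, was at 20 in that same library and at 60 to 100 elsewhere.

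IFTAP (chromosome 11, 36594369 to 36675695) was at 12 and 28 in day 25 WT, 66 and 99 in KO and 24 and 34 in OE. At day 30 all 6 libraries lay between 16 and 30. The 2 day 25 KO values exceeded the other 10 libraries, and the KO against WT log2 fold change was 2.08 (SE 0.45, limma adjusted p = 0.171). The lower day 25 WT value, 12, lies close to 11, the lowest of the scale. The WT pair lay 0.58 below and 0.58 above its mean on the log2 scale. IFTAP thus had an uncertain baseline. It was among the 3 members with the lowest mean on the deposited scale, with OFD1 and RPGR.

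**Figure D3:**
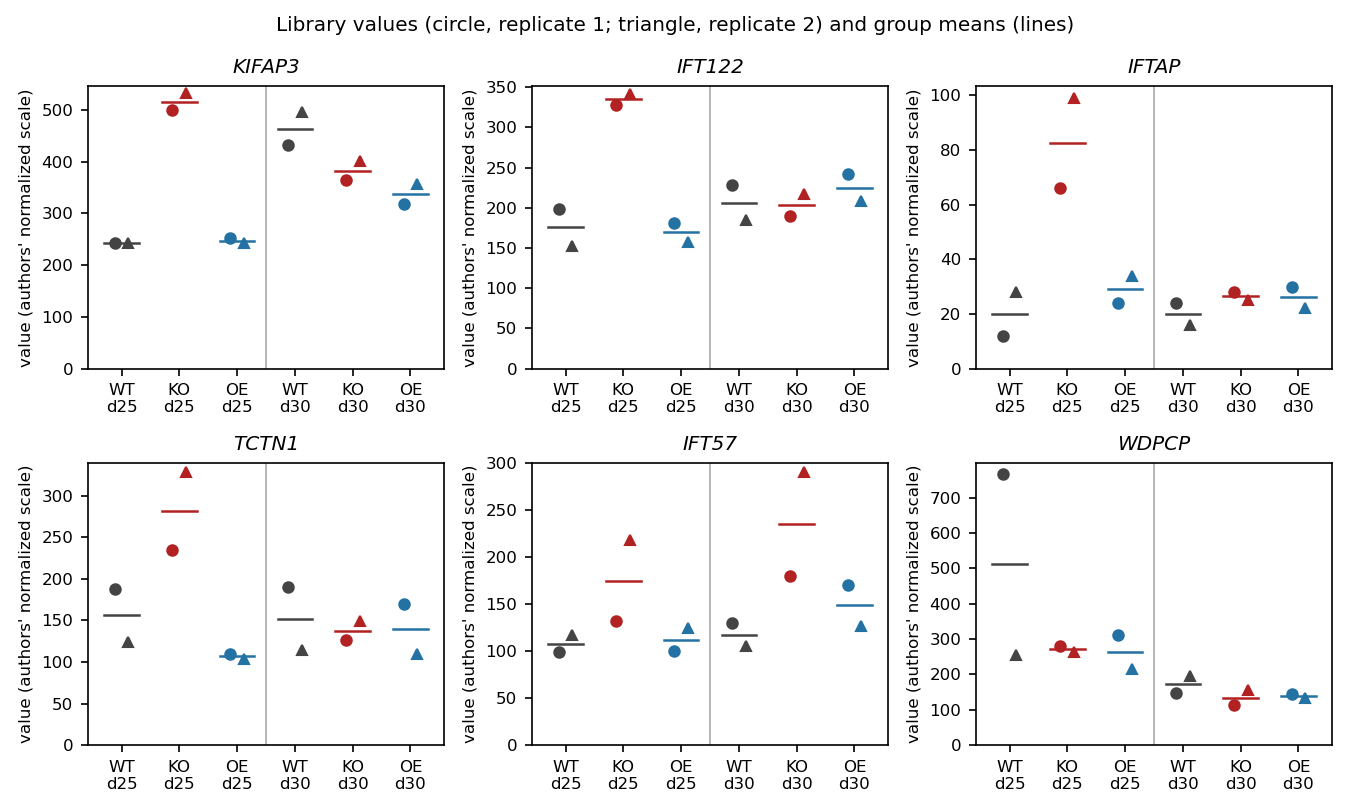
Panels give the authors' normalized value on a linear axis from 0 in the 12 libraries for KIFAP3, IFT122, IFTAP, TCTN1, IFT57 and WDPCP. Circles are replicate 1, triangles replicate 2 and lines the mean of 2. KIFAP3, IFT122, IFTAP and TCTN1 have both KO symbols above WT and OE at day 25, and WDPCP is lower at day 30 than at day 25 in every genotype.

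At the transition zone 3 of 17 genes, CC2D2A and TCTN1 among them, were higher in KO at day 25 at an unadjusted p under 0.05 and 0 were lower, beside 6.03% and 7.39% of all genes. TCTN1, a tectonic that helps anchor the gate to the membrane, was at 188 and 124 in day 25 WT, 235 and 329 in KO and 110 and 104 in OE. CC2D2A, a further gate protein, was at 86 and 82, 125 and 258, and 80 and 75. Both genes had KO values above the WT and OE values of day 25. At day 30 KO against WT gave -0.10 (SE 0.33) for TCTN1 and -0.01 (SE 0.37) for CC2D2A on the log2 scale. B9D1 and RPGR each had 1 or 2 high libraries: B9D1 was at 172 in KO day 25 replicate 2 and at 32 to 84 elsewhere, and RPGR was at 71 and 94 in replicate 2 of the KO pairs and at 15 to 34 elsewhere.

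CEP290, which bridges microtubules and membrane in the gate, was at 102 and 127 in day 25 WT, 84 and 108 in KO and 122 and 160 in OE, and at 101 to 184 at day 30. RPGRIP1L, a scaffold of the gate, ran from 50 to 105. NPHP4 had the smallest spread of all members, 62 to 84, and BBS2 and KIF3A followed. TMEM237 went the other way from most members, with day 25 KO values of 37 and 44 against 58 and 62 in WT. OFD1, a basal body protein, was at 25 and 11 in day 25 KO against 28 and 25 in WT. Its lower KO mean rested mostly on replicate 2, where 11 is the lowest value of the scale.

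For the BBSome, BBS4 ran from 81 to 167 in 11 libraries and was at 41 in KO day 30 replicate 2. BBS2, a core subunit, ran from 132 to 217. BBS5 was the single gene of the 8 BBSome genes and partners higher at an unadjusted p under 0.05 for KO against WT over both days, beside 7.01% of all genes (log2 fold change 0.81, SE 0.36, limma adjusted p = 0.325).

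The second question was how OE, the edited cells with the inducible transgene, compared with KO. With OE against KO at day 25, 1 of 58 members was called (1.72% beside 0.274% of all genes): KIFAP3 fell by 1.06 on the log2 scale (SE 0.18, limma adjusted p = 0.0439). Over both days its log2 fold change was -0.62 (SE 0.12, adjusted p = 0.0290), past the p threshold, as 3.3% of all genes were, but under 2-fold. The adjusted p of the day 25 call ran from 0.0126 to 0.278 over 23 alternative settings, and the call was lost in 13 of them while the fold change stayed between -1.10 and -1.01. Omitting KO replicate 2 gave 0.0507. Leaving out a WT library of either day, which does not enter the contrast but the shared spread, gave 0.0843 to 0.0973.

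As a group, the members were lower in OE than in KO at day 25. Their median log2 fold change was -0.42, against 0.03 for all genes, 15 of 58 were above 0 (25.9% beside 52.4% of all genes), and for 25 of 58 both OE libraries lay below both KO libraries (43.1% beside 22.4%). At an unadjusted p under 0.05, 9 were lower (15.5% beside 8.5%) and 2 higher (3.45% beside 9.31%), TMEM237 and OFD1. For OFD1 the value in KO replicate 2 was 11, the lowest of the scale. Among the 9 were IFT122, WDR35, KIFAP3, DYNC2H1, CC2D2A, TCTN1, TMEM107 and IFTAP. These KO libraries are the same as in the comparison with WT, so the 2 comparisons share any deviation of KO replicate 2. Without that replicate the median was -0.16, and without replicate 1 it was -0.64. At day 30 the median was -0.06 and 0 members were called (0.0842% of all genes were), with 2, IFT88 among them, past an unadjusted p of 0.05 and 2-fold (3.45% beside 5.38%). For day 25 that count was 5 (8.62% beside 8.57%) and over both days 2 (3.45% beside 4.98%). Over both days 0 members and 2.22% of all genes were called, 12 members were lower at an unadjusted p under 0.05 (20.7% beside 10.7%) and 1 was higher (1.72% beside 11.5%). KIFAP3 was the single member with all 4 OE libraries below all 4 KO libraries, beside 4.51% of all genes.

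**Figure D4:**
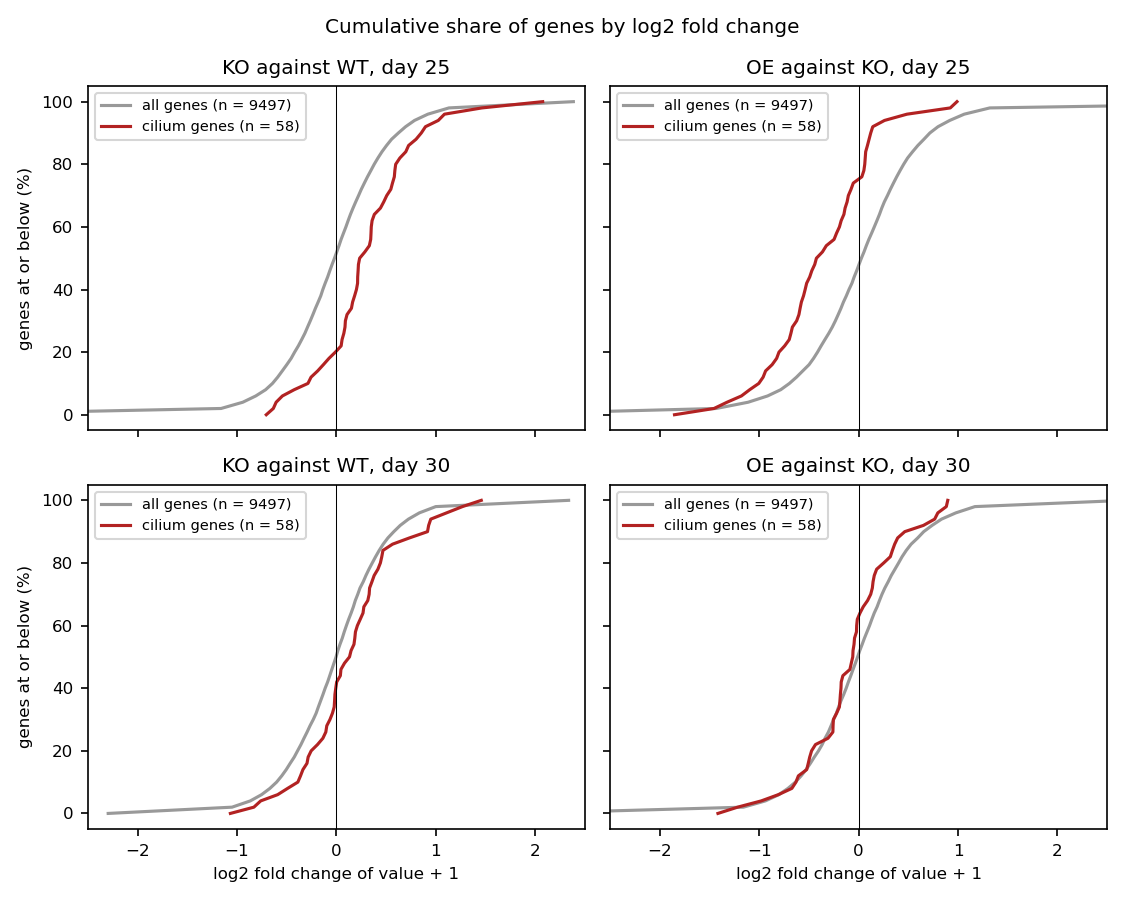
Curves give the share of genes (y axis, percent) at or below each log2 fold change of value + 1 (x axis), in red for the 58 cilium genes and grey for all 9497 genes. The red curve lies right of the grey for KO against WT at day 25 (median 0.23) and left of it for OE against KO at day 25 (median -0.42), and the curves lie closer at day 30 (0.13 and -0.06).

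By role, the day 25 OE against KO median was -0.59 for the transition zone (12 of 17 below 0), -0.58 for IFT-A and its adaptor (7 of 8) and -0.51 for dynein-2 (3 of 4). It was -0.48 for IFT-B (9 of 10), -0.32 for the kinesin group (3 of 5) and -0.20 for the BBSome and partners (6 of 8). Without KO replicate 2, a setting chosen after the data were seen, these medians were -0.20 for the transition zone, -0.31 for IFT-A and 0.15 for dynein-2 (2 of 4 below 0). They were -0.15 for IFT-B, -0.58 for the kinesin group and -0.16 for the BBSome and partners. Without replicate 1 the kinesin median was 0.05. With both KO replicates the basal body pair, CEP164 and OFD1, was above 0 at 0.07 and 0.98. The OFD1 value includes the 11 of KO replicate 2, and in KO replicate 1 OFD1 was at 25. For TCTN1 the log2 fold change was -1.37 (SE 0.33, limma adjusted p = 0.0781), and for IFT122 it was -0.98 (SE 0.22, adjusted p = 0.0701).

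OE and WT were close. Over both days 0 members were called (0.158% of all genes were), the median was 0.02, and 31 of 58 lay above 0. At an unadjusted p under 0.05, 0 were higher (beside 3.53% of all genes) and 1 lower, DYNC2H1 (1.72% beside 4.69%). With a 2-fold change added, 0 passed (1.19% of all genes did). KIFAP3 had a log2 fold change of -0.21 (SE 0.12). With 4 libraries per genotype, an unpassed test does not show that the genotypes were alike.

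Between day 25 and day 30, over all genotypes, 0 members and 0% of all genes were called, and the median of the members was 0.01. At an unadjusted p under 0.05, KIFAP3 and OFD1 were higher at day 30 (3.45% beside 5.76% of all genes) and IFT27, DYNC2H1 and WDPCP lower (5.17% beside 5.54%), of which WDPCP also passed the 2-fold threshold (0.411% of all genes passed both). WDPCP (chromosome 2, 63119559 to 63827843, minus strand), a planar cell polarity effector that helps bring transport proteins to the basal body, was at 767 and 256 in WT, 280 and 263 in KO and 312 and 214 in OE at day 25. At day 30 it was at 148 and 196, 112 and 157, and 144 and 132. All 6 day 30 values lay below all 6 of day 25, a separation seen in this direction in 0.474% of all genes. The log2 fold change was -1.10 (SE 0.24, limma adjusted p = 0.200), and without WT day 25 replicate 2 the gene was called (adjusted p 0.0174, range over 22 alternatives 0.0174 to 0.702). WDPCP overlaps MDH1, another gene of the tables. By RefSeq GRCh38.p14 spans 21 of the 58 members overlap another coding gene, and for 13 that gene is in the tables, among them IFT122 (MBD4), IFT46 (ARCN1 and TMEM25), IFT80 (SMC4), DYNC2I2 (SPTAN1), TULP3 (RHNO1), BBS2 (OGFOD1), B9D1 (EPN2 and MAPK7) and OFD1 (GPM6B). Whether the counting used strand is not given in the sources used here, so the values of overlapping genes are uncertain.

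Neighbouring parts of the pathway were read from lists by role. Of the 7 listed IFT and BBSome subunits named outside the symbol rule (TRAF3IP1, CLUAP1, TTC30A, TTC30B, TTC26, LZTFL1 and MKKS), 0 were called in KO against WT, and their day 25 median was 0.50, which became 0.17 without KO replicate 2 and 1.14 without replicate 1. TTC26 was at 38 and 44 in WT, 72 and 186 in KO and 44 and 30 in OE. Of 29 centriole and ciliogenesis factors 0 were called for KO against WT, with a day 25 median of -0.01. For OE against KO over both days 1 of them, KIAA0586, was called, as were 2.22% of all genes. It rose in OE (log2 fold change 1.01, SE 0.24, limma adjusted p = 0.0441). Of 16 Hedgehog pathway genes, the receivers of signals in the cilium, 0 were called in either comparison. The day 25 median was -0.31 for KO against WT and -0.13 for OE against KO (10 of 16 below 0). Against the day 25 WT mean, the list median was -0.27 and -0.33 in the KO libraries and -0.28 and -0.26 in OE. GLI2, a Hedgehog effector, differed from the list, at 118 and 135 in WT, 48 and 43 in KO and 102 and 98 in OE. Its KO against WT log2 fold change was -1.45 (SE 0.33, limma adjusted p = 0.171).

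Of the 8 listed ciliogenesis transcription factors 0 were called in KO against WT or OE against KO. RFX3, a factor that binds the X-box, was at 722 and 734 in day 25 WT, 853 and 1082 in KO and 610 and 703 in OE, and its log2 fold change for KO against WT was 0.40 (SE 0.20, limma adjusted p = 0.422). The 34 motile axoneme genes had a day 25 KO against WT median of 0.80 and an OE against KO median of -1.54, with 0 called in each. Without KO replicate 2 these medians were 0.28 and -0.80. DNAH11, an axonemal dynein heavy chain, fell in OE against KO over both days (log2 fold change -1.41, SE 0.33, limma adjusted p = 0.0422). In that comparison 2.22% of all genes were called. The difference between the axoneme and cilium lists was not tested.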

How the data were processed

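RNA-seq values of 12 ThO libraries were analysed; 9 ATAC-seq and 2 CUT&Tag samples were not analysed here. The authors deposited 1 normalized score per gene and library, rounded to whole numbers, with identical lowest, median and highest values, a pattern that quantile normalization leaves. The labels list Bowtie2, RSEM, bcl2fastq and hg19 with no roles, whereas positions were on GRCh38 (58 of 58 cilium genes at their RefSeq GRCh38.p14 position). Normalization, read depth and strand use are not given in the sources used here, so no counting interval was computed. No value was below 11.

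The fit used log2(value + 1) in limma 3.58.1 (R 4.3.3), with 1 mean for each of 6 groups, an intensity trend and empirical Bayes moderation (6 residual and 5.29 prior degrees of freedom). The planned filter (a value of at least 1 in 2 libraries) removed 0 genes. P-values are two-sided and adjusted by Benjamini-Hochberg over 9497 genes. Calls needed an adjusted p under 0.05 and 2-fold. The script was tested on simulated data. Tables, promoter letters and figures were made in Python 3.11.15.

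Genes were named by a rule: 10 representatives, the 3 lowest p per direction, the 3 highest and lowest means and spreads, called genes and JUN (24 members); other genes were named after their values were seen. The cilium genes, lists and tests were chosen with earlier results of these data known. The study's methods mention separate batches for its experiments in general but do not tie replicate libraries to them, so p-values measure only the spread between these samples, which may be technical. Alternatives were other pseudocounts (0.1 and 5), filters, scalings, weights, thresholds, fewer libraries, a replicate block and leaving out each library. Some members count in every total but are not reported here by name, and the heat map leaves out 3.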

Additional observations from a re-analysis of the deposited data

Results flagged for a closer look

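The effect of KO against WT on KIFAP3 went opposite ways at the 2 days, 1.09 on the log2 scale at day 25 and -0.27 at day 30, with both KO libraries on one side of both WT libraries at each day. The difference, -1.36 (SE 0.25, unadjusted p = 0.000177), did not pass over all genes (limma adjusted p = 0.802). IFT20, an IFT-B subunit found also at the Golgi, had an OE against KO difference of -0.14 at day 25 and 0.39 at day 30, with no overlap at either day; the change between days, 0.52, was not tested. Opposite, non-overlapping effects of this kind were seen in 3.749% of all genes for KO against WT and 3.475% for OE against KO, and in 1 of 58 cilium genes each.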

How the results depend on the processing

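When p was left unadjusted (0.05, 2-fold), KO against WT gave 4 genes for day 25, 1 for day 30 and 2 for the days together. OE against KO gave 5, 2 and 2 in the same order, and 1, WDPCP, passed for day 30 against day 25. With no fold threshold 1 gene, KIFAP3, passed for OE against KO over both days. The day 25 OE against KO count of 1 became 0 with library weights (adjusted p of KIFAP3 0.123), no intensity trend (0.0859) and only the libraries compared (0.205); the range over 23 settings was 0.0126 to 0.278. With only replicate 1 of KO at both days, a setting chosen after the data were seen, 2 genes (IFT80 and KIFAP3) were called for KO against WT and 2 (the same pair) for OE against KO at day 25 (4.44% and 7.51% of all genes were), and the medians became 0.012 for KO against WT at day 25, -0.16 for OE against KO at day 25 and -0.050 over both days. A lone library was there assumed to vary like the other groups.

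With 1 library left out at a time, counts ran from 0 to 5 for KO against WT over both days, 0 to 11 at day 30 and 0 to 0 at day 25. For OE against KO they ran from 0 to 3 at day 25, 0 to 11 at day 30 and 0 to 4 over both days, and from 0 to 1 for day 30 against day 25. The 11 (19.0% of the cilium genes) came without KO day 30 replicate 1, which leaves replicate 2 alone, and 11.4% of all genes were then called for KO against WT and 15.2% for OE against KO. Genes called for an unequal KO effect at the 2 days numbered 0 to 2. Medians ran from 0.012 to 0.52 (KO against WT, day 25), -0.64 to -0.16 (OE against KO, day 25), -0.31 to 0.12 (day 30, where OE day 30 replicate 1 decided it) and -0.40 to -0.13 (both days). IFT27 for KO against WT over both days reversed to 0.027 without KO day 30 replicate 2 (range -0.88 to 0.027). The JUN difference ran from 76.5 to 129. Without any 1 WT library it was weaker by the exact permutation test, with p = 0.0571 against 0.0286 with all libraries.

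With the replicate number as a block, the day 25 OE against KO count became 0 (adjusted p of KIFAP3 0.0672); no other count of called cilium genes moved. Over all genes the block changed calls from 26 to 8 for OE against KO at day 25, 8 to 13 at day 30 and 211 to 139 over both days, and from 15 to 5 for OE against WT. Replicate 1 minus replicate 2 correlated between groups at -0.214 to 0.262, so the libraries share only a number. The cause of these shifts was not tested. Depth is unknown and cannot be weighed.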
